A study of Homo sapiens with 4 samples.

Results

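The 34 genes described here encode aminoacyl-tRNA synthetases. They were taken by name from a table that lists 61860 genes: 16 encode cytosolic enzymes, 16 encode mitochondrial enzymes, and GARS1 and KARS1 each encode a cytosolic and a mitochondrial form. They were taken by function, and earlier results of these data were known when the list was made. RNA was profiled in cells labelled HT1376, a bladder cancer cell line. They had 48 h with 1 nM Enfortumab vedotin (EV, n = 2) or with a control labelled WFI (n = 2). EV couples an antibody against nectin-4 to monomethyl auristatin E, a drug that disrupts microtubules. All 4 samples came from the same line, grown in MEM with fetal bovine serum, and neither genotype nor glucose was varied. The labels do not name separate cultures, so the p-values below reflect how far these samples differ, a spread that may be technical only.

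An aminoacyl-tRNA synthetase joins an amino acid to its matching tRNA, the step that fixes the meaning of a codon before the ribosome reads it. Cytosol and mitochondria keep largely separate sets of these enzymes, both encoded in the nucleus and made in the cytosol. Many cytosolic synthetase genes are known targets of ATF4, the transcription factor of the integrated stress response. AARS1 and AARS2, the alanyl enzymes, have also been reported to add lactyl groups to proteins, and the series title concerns lactylation of the RNA methylation reader YTHDC1.

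Libraries held 19368791 to 20727175 counts. The unit of level is CPM, the counts of a gene brought to equal library depth, with TMM factors for differences in composition. The bladder cancer label was set beside marker genes, which do not settle the identity of the line. KRT8 and KRT18, keratins of simple epithelium, were abundant, with KRT8 at 739 and 727 CPM in WFI, while CDH1, KRT19, KRT20, UPK2 and UPK3A had at most 9 counts in any library. EPCAM had 3 and 6 counts in WFI and 26 and 15 in EV. UPK1A had 1 and 2 counts against 17 and 21, and UPK1B 0 and 0 against 13 and 6. Mesenchymal markers were abundant as well: FN1 was at 10089 and 9938 CPM in WFI and 5329 and 5267 CPM in EV, VIM at 1729 and 1720 CPM against 1981 and 1937 CPM, and CDH2 at 154 and 155 CPM against 149 and 152 CPM. Of 6 stromal and endothelial markers 3 could be tested, with PECAM1 higher in EV (1.16 and 2.20 CPM against 4.18 and 4.80 CPM) and COL1A1 and PDGFRB not called. The part of these markers in the synthetase changes was not tested. Of 11 epithelial markers 5 could be tested, and 4 were higher and 1 lower in EV. Of 5 leukocyte markers, 0 had enough counts to be tested. NECTIN4, the EV target, had 28 and 29 counts in WFI and 9 and 6 in EV. YTHDC1 was at 2.32 and 8.37 CPM in WFI and at 3.30 and 12.9 CPM in EV, so replicates differed more than groups.

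Of the 34 synthetase genes, 33 had enough counts to be tested with edgeR. In EV 17 were lower, 8 were higher and 8 were not called at a Benjamini-Hochberg adjusted p below 0.05. Over all 17465 genes tested, 31.5% were called lower, 34.5% higher and 66.0% changed, so a call alone was common here. The lower calls took 51.5% of the tested synthetases and the higher calls 24.2%. Their median log2 fold change was -0.17, against 0.02 over all genes tested. Changes were mostly small: 2 synthetases, PARS2 and MARS2, were lower by a log2 fold change of 1 or more, against 13.3% of all genes, and 1, CARS2, was higher by as much, against 17.5%. WFI and EV samples did not overlap in CPM for 29 of the 33, where 82.8% of all genes did not overlap. In bulk RNA, fewer cells of a type and less RNA per cell cannot be told apart.

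**Figure D1:**
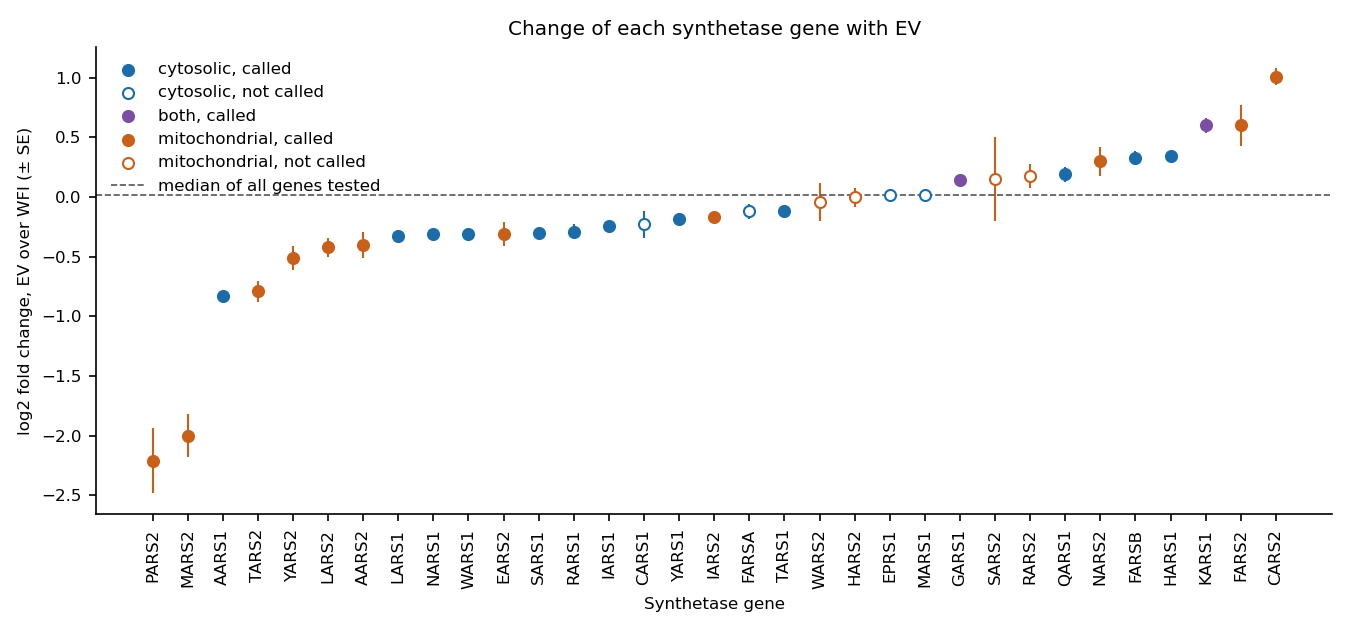
The log2 fold change of EV over WFI (vertical axis, with SE) is shown for the 33 tested synthetase genes, ordered from lowest to highest. Filled points passed the edgeR threshold, and the dashed line is the median of all genes tested. PARS2 and MARS2 stand at -2.21 and -2.0, CARS2 at 1.01, and the other 30 lie between -0.83 and 0.60.

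The summed level of the listed genes was 3609 and 3626 CPM in WFI and 3360 and 3351 CPM in EV, a fall of 7.24% after TMM scaling. As an unscaled share of all counts the sum went from 0.383% and 0.386% to 0.316% and 0.313%, a larger fall. The 16 cytosolic genes summed to 2751 and 2765 CPM in WFI and to 2421 and 2432 CPM in EV, 12% lower, and their unscaled share went from 0.292% and 0.294% to 0.227% in both EV samples. The mitochondrial genes summed to 524 and 531 CPM in WFI and 494 and 507 CPM in EV. GARS1 and KARS1 went the other way, from 334 and 330 CPM together to 445 and 412 CPM. Neither the cytosolic, the mitochondrial nor the shared sum overlapped between groups.

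Median levels per kb of transcript differed between the compartments, while their ranges overlapped. In WFI the cytosolic genes ran from 9.38 CPM per kb (CARS1) to 103 (SARS1), with a median of 50.2. The 16 mitochondrial genes, with VARS2 counted at 0, had a median of 7.67 CPM per kb. The highest, IARS2 at 54, stood above the cytosolic median. GARS1 and KARS1, which serve both compartments, stood at 69.7 and 74.2 CPM per kb. The medians in EV were 48.1 for cytosolic and 7.13 for mitochondrial genes, so the gap between the medians stayed.

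**Figure D2:**
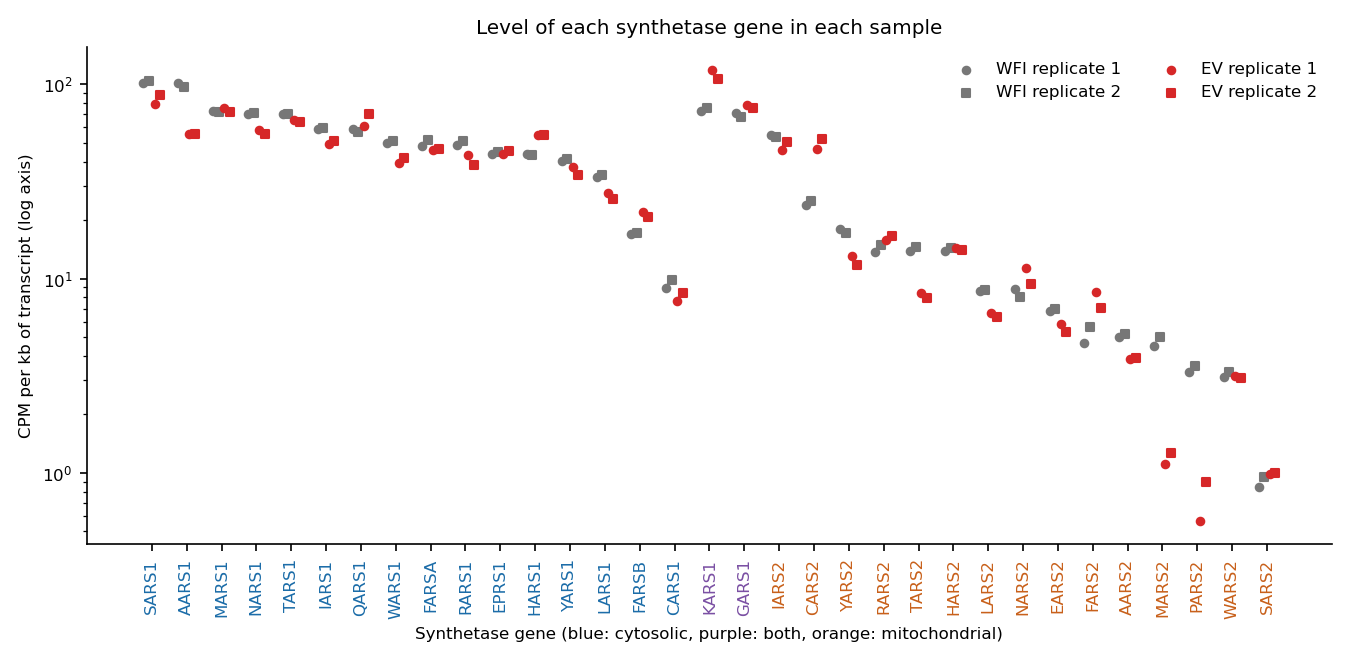
Level of each synthetase gene in each of the 4 samples, as CPM per kb of transcript on a log axis, with genes grouped by compartment and ordered by their WFI level. Grey points are WFI and red points EV. Cytosolic genes sit between 9.38 (CARS1) and 103 (SARS1) in WFI, and the red points part furthest from the grey ones for MARS2 and PARS2. VARS2, listed at 0, is not drawn.

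The alanyl enzymes fell in both compartments. AARS1 (ENSG00000090861; chr16:70252295-70289543, hg38, minus strand) is the cytosolic enzyme and was among the most abundant synthetase transcripts of the control, at 98.5 CPM per kb. It measured 350 and 335 CPM in WFI and 192 in both EV samples. The groups lie far apart relative to their spread, 342 ± 10.6 against 192 ± 0.173 CPM (SD, n = 2 each). The log2 fold change was -0.83 (SE 0.04, adjusted p = 8.98e-09), the largest fall among cytosolic synthetases, and it kept its call in all 12 alternatives other than a fold threshold, at -1.16 to -0.72. AARS2 (chr6:44299654-44313326, hg38, minus strand), the mitochondrial alanyl enzyme, is expressed at a lower level, 397 and 418 counts in WFI and 269 and 290 in EV. Its CPM were 19.2 and 20.0 in WFI and 14.8 and 15.0 in EV. The AARS2 groups did not overlap either, with a log2 fold change of -0.40 (SE 0.11, adjusted p = 0.0104). That call was lost without the first WFI sample (adjusted p = 0.0671), without the second (0.116), with DESeq2 (0.0616) and with an outlier-resistant length and GC correction (0.064). Its adjusted p ran from 0.000162 to 0.116 over the alternatives.

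In animal cells several cytosolic synthetases join in a multi-synthetase complex held together by the scaffold proteins AIMP1, AIMP2 and EEF1E1. Of the 7 listed members of the complex, 3 were lower in EV (LARS1, RARS1 and IARS1), 2 were higher (QARS1 and KARS1), and EPRS1 and MARS1 were not called. Their median log2 fold change was 0.02, the same as that of all genes tested, of which 31.5% were lower and 34.5% higher. EPRS1, whose single protein carries the glutamyl and the prolyl enzyme, measured 219 and 224 CPM in WFI and 220 and 229 CPM in EV. MARS1, the methionyl enzyme, measured 212 and 209 CPM in WFI and 218 and 209 CPM in EV. Both sets overlap between groups. EPRS1 passed the threshold upward under the length and GC correction (0.12, adjusted p = 0.0168) and its outlier-resistant form (0.36, adjusted p = 6.31e-06). MARS1 passed it downward under the first of these (-0.39, adjusted p = 5.02e-06).

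LARS1, the leucyl enzyme and a reported leucine sensor for mTORC1, went from 158 and 162 CPM to 131 and 123 CPM, a log2 fold change of -0.33 (SE 0.05, adjusted p = 0.000113). IARS1, the isoleucyl enzyme, went from 274 and 278 CPM to 229 and 238 CPM, at -0.24 (SE 0.04, adjusted p = 0.000197). RARS1, the arginyl enzyme, changed by -0.29 (adjusted p = 0.00206). These 3 falls are modest, and the outlier-resistant length and GC correction moved LARS1 to -0.01 (adjusted p = 0.921) and IARS1 to 0.06 (adjusted p = 0.201). Over all alternatives the adjusted p ran from 8.39e-09 to 0.921 for LARS1 and from 3.95e-07 to 0.201 for IARS1. QARS1, the glutaminyl enzyme, rose from 166 and 160 CPM to 172 and 198 CPM, a log2 fold change of 0.19 (SE 0.06, adjusted p = 0.0183). Its call was lost without the second WFI sample (adjusted p = 0.0534), without the second EV sample (0.114) and with no count filter (0.142), within a range of 0.000872 to 0.142, and it reversed to -0.26 under the length and GC correction. Of the 3 scaffold genes, AIMP1 rose from 57.0 and 58.2 CPM to 86.4 and 78.6 CPM (log2 fold change 0.52, adjusted p = 4.33e-05), while AIMP2 (0.09, adjusted p = 0.675) and EEF1E1 (0.05, adjusted p = 0.801) were not called.

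KARS1 (chr16:75627474-75648643, hg38, minus strand) had the largest rise among enzymes that work in the cytosol. This gene makes the lysyl enzymes of cytosol and mitochondria by alternative splicing, which counts per gene do not separate. It measured 147 and 151 CPM in WFI and 239 and 213 CPM in EV, 149 ± 3.34 against 226 ± 18.7 CPM (SD, n = 2 each). Both EV values exceed both WFI values, a 1.52-fold rise (log2 fold change 0.60, SE 0.06, adjusted p = 2.84e-06), and the call held in all 12 alternatives, at 0.19 (length and GC correction) to 0.69. GARS1, the glycyl enzyme and the other gene serving both compartments, rose from 188 and 179 CPM to 205 and 199 CPM. Its groups were close, 184 ± 6.16 and 202 ± 4.73 CPM, with a log2 fold change of 0.14 (SE 0.04, adjusted p = 0.0142). The GARS1 call was lost without the second WFI sample (adjusted p = 0.17) and with no count filter (0.363), and the length and GC correction reversed it to -0.21 (0.00116). These span the range over its alternatives.

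Of the 11 cytosolic or dual genes outside the complex, 6 were lower, 3 higher and 2 not called, with a median log2 fold change of -0.18. Beside AARS1 the lower genes were NARS1, WARS1, SARS1, YARS1 and TARS1. NARS1, the asparaginyl enzyme, went from 217 and 220 CPM to 180 and 173 CPM (log2 fold change -0.31, adjusted p = 5.91e-05). SARS1, the seryl enzyme, went from 189 and 193 CPM to 147 and 163 CPM (-0.30, adjusted p = 0.000487). NARS1 and SARS1 kept their calls in all 12 alternatives. WARS1, the tryptophanyl enzyme, whose gene is induced by interferon gamma, went from 154 and 158 CPM to 122 and 129 CPM, or 156 ± 2.46 against 126 ± 5.01 (SD, n = 2 each). Its log2 fold change of -0.31 (SE 0.05, adjusted p = 0.000166) also kept its call throughout.

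YARS1, the tyrosyl enzyme, and TARS1, the threonyl enzyme, were at the edge of the threshold. YARS1 had a log2 fold change of -0.18 (SE 0.05, adjusted p = 0.0143). Its call was lost with DESeq2 (adjusted p = 0.0561), upper quartile scaling (0.0726) and a filter of 50 counts (0.0503). The outlier-resistant length and GC correction lost it too (-0.11, adjusted p = 0.107). The YARS1 call was also lost without either WFI sample (log2 fold change -0.19 and -0.15) and without the second EV sample (-0.11). Its adjusted p ran from 2.97e-06 to 0.113 over the alternatives. TARS1 measured 302 CPM in both WFI samples and 282 and 275 CPM in EV. The TARS1 fall was -0.12 (SE 0.03, adjusted p = 0.0121). Its call was lost with DESeq2 (adjusted p = 0.0677), upper quartile scaling (0.157) and a filter of 50 counts (0.094). Without either WFI sample (log2 fold change -0.11 in each fit) the call was lost as well. The fall turned to 0.14 (adjusted p = 0.00488) under the outlier-resistant length and GC correction, within a range of 0.000277 to 0.157.

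HARS1 and FARSB rose. HARS1, the histidyl enzyme, measured 107 and 105 CPM in WFI and 134 in both EV samples, 106 ± 1.48 against 134 ± 0.104 CPM (SD, n = 2 each). Replicates were far closer than groups, with a log2 fold change of 0.34 (SE 0.05, adjusted p = 7.88e-05), and its direction turned in a single alternative, the length and GC correction (-0.17, adjusted p = 0.00807, the highest of its range, which began at 4.15e-08). FARSA and FARSB encode the alpha and beta subunits of the same phenylalanyl enzyme. FARSB rose from 57.1 and 57.6 CPM to 74.2 and 70.2 CPM (0.33, SE 0.06, adjusted p = 0.000866), whereas FARSA measured 87.6 and 93.6 CPM in WFI and 83.2 and 83.8 CPM in EV and was not called (-0.12, SE 0.06, adjusted p = 0.0911). The difference between the subunits was not tested. CARS1, the cysteinyl enzyme and the least abundant cytosolic gene per kb, was not called (-0.23, SE 0.11, adjusted p = 0.0917). FARSA and CARS1 each passed the threshold downward in some alternatives, with adjusted p from 1.49e-07 to 0.603 and from 0.000193 to 0.494.

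Mitochondrial synthetases held both extremes. Of the 15 tested, 8 were lower, 3 higher and 4 not called, with a median log2 fold change of -0.17. Among all genes tested 31.5% were lower and 34.5% higher. PARS2, the mitochondrial prolyl enzyme (ENSG00000162396; chr1:54756898-54764514, hg38, minus strand), had 160 and 174 counts in WFI and 24 and 41 in EV. In CPM these are 7.75 and 8.32 against 1.32 and 2.12. The lower WFI value is thus several times the higher EV value, with means of 8.03 ± 0.403 and 1.72 ± 0.564 CPM (SD, n = 2 each) and a 4.64-fold fall (log2 fold change -2.21, SE 0.27, adjusted p = 3.39e-05). MARS2, the mitochondrial methionyl enzyme (chr2:197705369-197708387, hg38, plus strand), had 282 and 317 counts in WFI and 61 and 74 in EV. It measured 13.7 and 15.2 CPM in WFI and 3.35 and 3.82 CPM in EV, a 4.01-fold fall (-2.0, SE 0.18, adjusted p = 2.17e-06). Both falls held in all 12 alternatives, at -2.73 to -1.92 for PARS2 and -2.29 to -1.91 for MARS2.

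PARS2 and MARS2 share a compact gene structure. The principal transcript of MARS2 has 1 exon and 3019 bases and that of PARS2 has 2 exons and 2347 bases, and no other tested synthetase has so few exons. Among protein coding genes tested, the median log2 fold change was -0.31 for the 312 with 1 exon, of which 24% were lower by 1 or more. It was -0.08 for the 641 with 2 exons, of which 18.9% were lower by as much. Across the 33 synthetases, exon number and log2 fold change had a Spearman rho of 0.09.

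The bases just before the transcription starts of these genes are shown because they had the largest falls. They come from RefSeq windows on GRCh38.p14, reading toward the gene, at chr2:197705249-197705368 (plus strand) for MARS2 and chr1:54764524-54764643 (minus strand) for PARS2. Capitals mark matches to 3 motifs searched on both strands: CCAAT (read here as ATTGG), which binds NF-Y, the E-box CACGTG, and GCATGCGC, the letters of an NRF1 site, of which MARS2 holds overlapping copies on the opposite strands.
MARS2: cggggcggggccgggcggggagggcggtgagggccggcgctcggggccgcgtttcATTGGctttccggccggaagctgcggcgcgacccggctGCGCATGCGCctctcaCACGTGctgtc
PARS2: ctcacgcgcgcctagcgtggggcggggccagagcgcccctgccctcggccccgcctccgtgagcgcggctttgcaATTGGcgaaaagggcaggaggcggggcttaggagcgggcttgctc
CCAAT was common, in 34.6% of all 35116 promoter windows of 250 bases before to 50 after a start and in 51.3% of the 39 synthetase windows. The NRF1 letters occurred in 3.05% of all windows and in those of 2 synthetases, MARS2 and YARS2. The E-box occurred in 7.26% of all windows and in CARS2, EARS2, IARS1 and MARS2. In the main test CARS2 was called higher and EARS2, IARS1 and MARS2 lower. The part of the letters in these changes was not tested. All of these are matches of letters, not measured binding.

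The threonyl, tyrosyl, leucyl, glutamyl and isoleucyl enzymes of mitochondria fell less. TARS2 measured 37.8 and 39.7 CPM in WFI and 23.1 and 21.6 CPM in EV, 38.7 ± 1.32 against 22.3 ± 1.06 (SD, n = 2 each). This 1.73-fold fall (log2 fold change -0.79, SE 0.09, adjusted p = 2.38e-05) kept its call in all 12 alternatives, as did that of YARS2, from 38.3 and 36.6 CPM to 27.8 and 24.9 CPM (-0.51, SE 0.10, adjusted p = 0.000753). LARS2 went from 40.7 and 41.6 CPM to 31.4 and 30.0 CPM (-0.42, SE 0.08, adjusted p = 0.00114), and its call was lost in 1 alternative, the outlier-resistant length and GC correction (-0.14, adjusted p = 0.186, the highest of a range from 3.65e-05). EARS2 (-0.31, SE 0.10, adjusted p = 0.0213) lost its call with DESeq2 (adjusted p = 0.0962) and with upper quartile scaling (0.0508). The outlier-resistant correction lost it too (0.347, the highest of a range from 0.000672). The EARS2 call was also lost without either WFI sample (log2 fold change -0.31 and -0.29) or without the second EV sample (-0.25). IARS2, the most abundant mitochondrial gene per kb, changed by -0.17 (SE 0.05, adjusted p = 0.0102). Its call was lost with upper quartile scaling (adjusted p = 0.0578) and without the first WFI sample (log2 fold change -0.15). The outlier-resistant correction also lost it (adjusted p = 0.937), the highest of a range from 0.000193.

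CARS2, the mitochondrial cysteinyl enzyme (ENSG00000134905; chr13:110641412-110713603, hg38, minus strand), rose most. The enzyme has also been reported to make cysteine persulfides. It measured 44.9 and 47.4 CPM in WFI and 87.1 and 98.1 CPM in EV, 46.1 ± 1.76 against 92.6 ± 7.74 (SD, n = 2 each). Every EV value was far above every WFI value, a 2.01-fold rise (log2 fold change 1.01, SE 0.07, adjusted p = 4.23e-07) that kept its call in all 12 alternatives, at 0.36 (length and GC correction) to 1.09. FARS2, the phenylalanyl enzyme, rose from 7.89 and 9.51 CPM to 14.4 and 11.9 CPM (0.60, SE 0.17, adjusted p = 0.0085). The FARS2 call was lost without the first WFI sample (adjusted p = 0.0951) and reversed to -0.08 (adjusted p = 0.672) under the length and GC correction, in a range that began at 0.00111. NARS2, the asparaginyl enzyme, was near the threshold at 0.30 (SE 0.12, adjusted p = 0.0464). Its call was lost with DESeq2 (adjusted p = 0.084), with no count filter (0.159) and with the length and GC correction (0.547, the highest of its range). The NARS2 call was also lost without either WFI sample (log2 fold change 0.37 and 0.25) and without the first EV sample (0.16).

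WARS2, HARS2, SARS2 and RARS2 were not called. HARS2 measured 35.0 and 35.9 CPM in WFI and 35.8 and 35.2 CPM in EV, and its groups overlapped, as did those of WARS2. RARS2 was at 24.9 and 27.2 CPM in WFI and 28.7 and 30.2 CPM in EV (log2 fold change 0.18, SE 0.10, adjusted p = 0.139). SARS2 had 36 and 41 counts in WFI and 37 and 40 in EV, and the SE of its log2 fold change was 0.35. A small change was not detectable at these counts. SARS2 shares 15493 bases on the same strand with ENSG00000269547, which had 0 counts in all 4 samples. Whether reads were lost to this overlap was not tested. VARS2, the valyl enzyme of mitochondria (chr6:30908242-30926459, hg38), was listed at 0 in all 4 samples. A count of 0 allows 3 counts, or 0.143 to 0.165 CPM, by counting error alone. The gene lies in the MHC region, where the cytosolic VARS1, no member of the list, also had 4 and 7 counts in WFI and 15 and 7 in EV, so these rows give no usable level.

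For 13 amino acids a cytosolic and a mitochondrial enzyme could be set side by side as the ratio of their levels per kb within each sample. This ratio was higher in both EV samples than in both WFI samples for 5 pairs and lower for 8, and no pair overlapped. Such separation was common here: 82.8% of all single genes tested did not overlap either. The share among ratios of other gene pairs was not computed. With 2 samples against 2, an exact two-sided permutation test of a ratio cannot go below p = 0.333, so the ratios are given as values. Of the 13, the methionyl pair moved most. The MARS1 to MARS2 ratio was 16.1 and 14.3 in WFI and 67.7 and 56.8 in EV, with MARS1 level and MARS2 lower. The cysteinyl pair moved the other way. CARS1 stood at 0.374 and 0.391 of CARS2 in WFI and at 0.165 and 0.161 in EV, and it was the sole pair of the 13 in which the mitochondrial transcript was the more abundant per kb.

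Among the rest, the TARS1 to TARS2 ratio rose from 5.05 and 4.82 to 7.72 and 8.06. The AARS1 to AARS2 ratio fell from 20.2 and 18.6 to 14.4 and 14.2, as the cytosolic transcript fell further. For the isoleucyl pair the ratio was 1.08 and 1.12 in WFI and 1.07 and 1.02 in EV, nearly level. Proline has no separate cytosolic gene and is not among the 13: its EPRS1 to PARS2 ratio was 13.2 and 12.6 in WFI and 78.1 and 50.5 in EV, a larger shift than that of the methionyl pair.

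**Figure D3:**
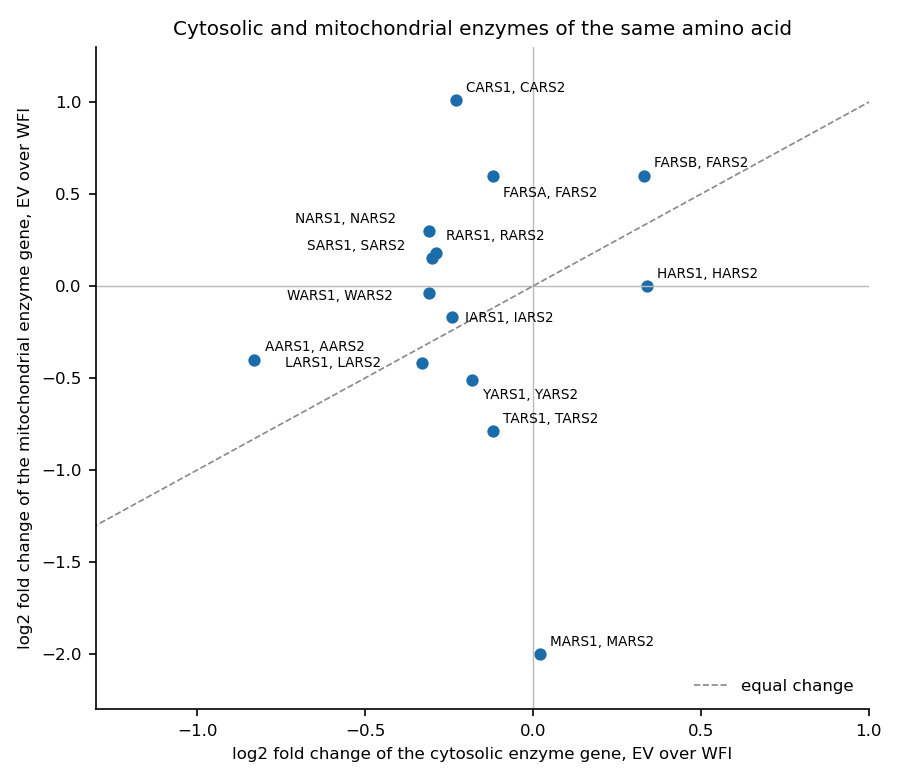
Each point is an amino acid, with the log2 fold change (EV over WFI) of its cytosolic gene on the horizontal axis and that of its mitochondrial gene on the vertical axis. The dashed line marks equal change, and FARS2 is drawn against each subunit of the cytosolic enzyme. MARS1 and MARS2 lie far below the line (0.02 and -2.0), and CARS1 and CARS2 far above it (-0.23 and 1.01).

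HARS1 and HARS2 start back to back on chromosome 5, with 84 bases between the RefSeq starts (chr5:140691371-140691454, GRCh38.p14, plus strand). In GENCODE 29, which places starts differently, the genes overlap by 437 bases on opposite strands. Reads from there can be assigned only if the counting used strand, and its strand setting is not given. This stretch is shown because the pair shares it: HARS1 reads leftward from it and rose, while HARS2 reads rightward and was not called (log2 fold change 0.00, SE 0.08, adjusted p = 0.97). Capitals mark CCGGAAGT, an ETS family site, found here on both strands.
HARS1 and HARS2: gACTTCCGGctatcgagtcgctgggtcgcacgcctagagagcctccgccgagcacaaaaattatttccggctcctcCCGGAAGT
The ETS letters were in 4.14% of all promoter windows and in 23.1% of synthetase windows, which belong to 8 genes: CARS1, EARS2, HARS1, HARS2, NARS1, PARS2, TARS1 and WARS1. Of these 5 were lower, 1 higher and 2 not called, where 31.5% of all genes tested were lower and 34.5% higher.

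ATF4 drives synthetase genes through the C/EBP-ATF response element, here TGATGNAA on either strand. The letters were in 3.62% of all promoter windows and in 20.5% of synthetase windows, in 8 of the 30 synthetase genes that have a RefSeq window (YARS1, AARS2, LARS1 and VARS2 have none there). The matches are shown because nearly the same 8 letters recur in 8 genes that did not move together. Each line reads toward the gene, with the match in capitals and 10 bases on each side.
AARS1: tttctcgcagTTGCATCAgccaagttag
CARS1: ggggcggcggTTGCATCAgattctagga
GARS1: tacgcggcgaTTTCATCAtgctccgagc
IARS1: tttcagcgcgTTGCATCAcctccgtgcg
MARS1: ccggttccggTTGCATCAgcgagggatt
NARS1: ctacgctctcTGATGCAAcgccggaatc
TARS1: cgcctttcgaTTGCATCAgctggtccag
YARS2: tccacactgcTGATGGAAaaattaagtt
These lie at chr16:70289676-70289703 (AARS1, minus strand), chr11:3057408-3057435 (CARS1, minus), chr7:30594835-30594862 (GARS1, plus), chr9:92293693-92293720 (IARS1, minus), chr12:57488054-57488081 (MARS1, plus), chr18:57621805-57621832 (NARS1, minus), chr5:33440957-33440984 (TARS1, plus) and chr12:32756077-32756104 (YARS2, minus). Of these 8 genes AARS1, IARS1, NARS1, TARS1 and YARS2 were lower, GARS1 was higher and CARS1 and MARS1 were not called, with a median log2 fold change of -0.23. Of the 22 others with a window, 9 were lower, 7 higher and 6 not called, with a median of -0.02. The shares over all genes tested were 31.5% lower and 34.5% higher.

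ATF4 mRNA itself rose. It measured 425 and 442 CPM in WFI and 984 and 971 CPM in EV (log2 fold change 1.17, SE 0.03, adjusted p = 1.06e-10). Of 12 cytosolic or dual synthetases listed as ATF4 targets, 8 were lower, 1 was higher and 3 were not called, with a median log2 fold change of -0.23. Over all genes tested 31.5% were lower and 34.5% higher. The other 6 cytosolic or dual genes had 4 higher, 1 lower and 1 not called, with a median of 0.26. This split depends on the processing. The outlier-resistant length and GC correction moved LARS1, IARS1, TARS1 and YARS1 to -0.01, 0.06, 0.14 and -0.11, while AARS1, NARS1, SARS1 and WARS1 stayed lower. The planned correction turned HARS1 (-0.17) and QARS1 (-0.26) of the 6 and GARS1 (-0.21) of the 12, while FARSB and KARS1 stayed higher. In a list of 29 genes of the stress response and amino acid supply, 14 were higher, 10 lower and 5 not called. The largest changes there were in opposite directions: ASNS, the asparagine synthetase and a textbook ATF4 target, rose from 3.82 and 3.92 CPM to 14.5 and 14.9 CPM (1.92, adjusted p = 1.82e-06), while CHAC1, which degrades glutathione, fell from 19.7 and 20.3 CPM to 3.08 and 5.78 CPM (-2.16, adjusted p = 7.07e-06). EIF2AK3, the kinase PERK, changed by 1.84 and EIF2AK2, the kinase PKR, by -1.46. EIF2AK4, the kinase GCN2, which senses uncharged tRNA, fell from 122 CPM in both WFI samples to 84.8 and 80.9 CPM (-0.56, adjusted p = 2.98e-06). ATF4 is regulated largely at translation, which RNA counts do not measure.

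WARS1 fell beside interferon response genes. Of 16 such genes, 14 were lower, 0 were higher and 2 were not called, with a median log2 fold change of -1.28. Over all genes tested, 31.5% were called lower and 34.5% higher. IDO1, which like WARS1 uses tryptophan and is induced by interferon gamma, went from 1.99 and 2.20 CPM to 0.110 and 0.103 CPM (-4.22, adjusted p = 0.000112). The log2 fold changes of SAMD9, IFIT1 and OAS2 were -3.48, -1.82 and -1.61, and that of WARS1, -0.31, was far smaller in size. The interferon response core GAAANNGAA stands before the second RefSeq start of WARS1 at chr14:100375384-100375412 (GRCh38.p14, minus strand), in 8.11% of all windows and in 12.8% of synthetase windows, those of EARS2, GARS1, IARS1 and WARS1. Of these 4 genes 3 were lower and GARS1 was higher. The WARS1 match is shown as that of the interferon-induced gene.
WARS1: tttcagaaggGAAACTGAAagaaagaggg

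**Figure D4:**
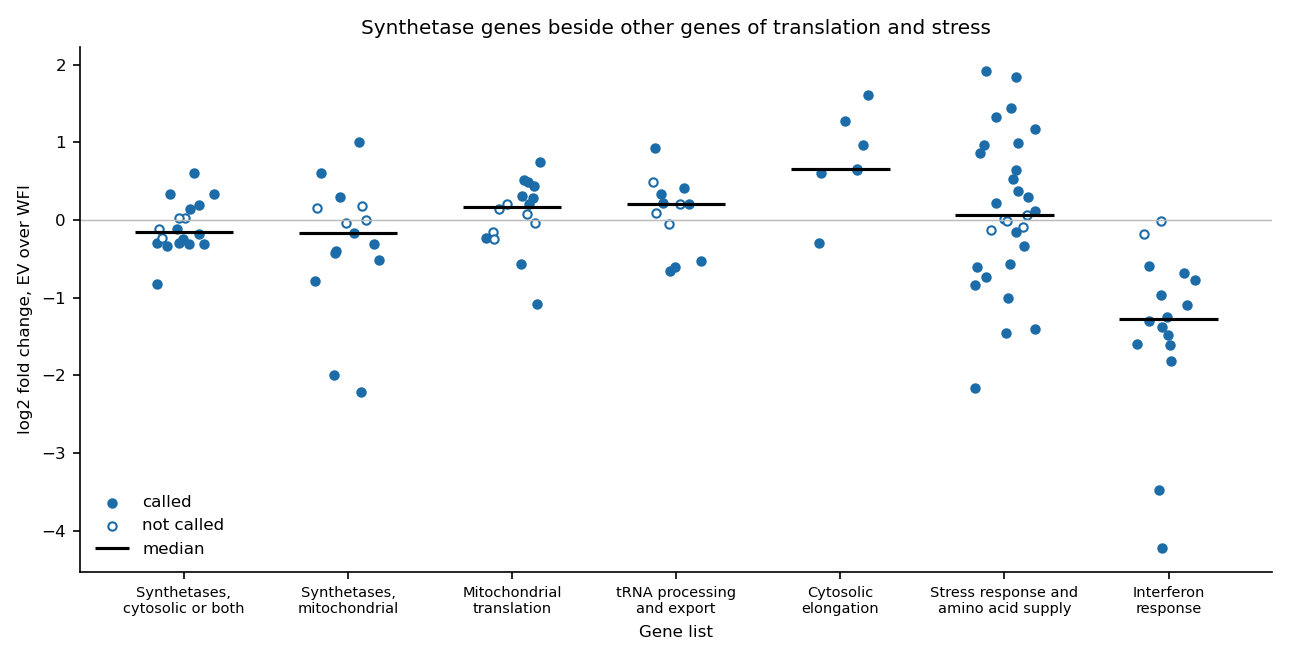
Each point is a tested gene and its log2 fold change of EV over WFI. The columns are gene lists, filled points passed the edgeR threshold and bars are medians. Both synthetase columns centre just below 0 (-0.15 and -0.17), cytosolic elongation genes lie higher (0.66) and interferon response genes lower (-1.28).

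Genes that act on tRNA beside the synthetases were counted from lists. Each count stands beside shares of 34.5% higher and 31.5% lower over all genes tested, and several lie near them. Of 7 tested genes of cytosolic elongation, 6 were higher and 1, EIF5A2, was lower, with a median log2 fold change of 0.66. EEF1A1, the factor that carries charged tRNA to the ribosome, rose from 5829 and 6019 CPM to 9466 and 9269 CPM (0.66, adjusted p = 5.01e-10), and its exchange factor EEF1B2 from 209 and 204 CPM to 500 and 499 CPM (1.28). Of 16 mitochondrial translation genes, 7 were higher, 3 lower and 6 not called. TUFM, the mitochondrial counterpart of EEF1A1, rose from 181 and 183 CPM to 295 and 317 CPM (0.75, adjusted p = 6.2e-08), while TRMT5, a tRNA methyltransferase, fell by 1.08 on the log2 scale (adjusted p = 1.1e-05). MTFMT, which formylates the methionyl-tRNA that MARS2 makes, is not in this list and is counted below with genes that modify charged tRNA. MTFMT fell from 10.4 and 11.9 CPM to 8.36 and 8.52 CPM (-0.40, adjusted p = 0.0428).

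Of 12 tested genes of tRNA processing and export, 5 were higher, 3 lower and 4 not called, beside the same shares over all genes. SSB, the La protein that binds new tRNA ends, rose by 0.93 on the log2 scale (adjusted p = 3.96e-08), and POP1, a subunit of RNase P, fell by 0.66 (adjusted p = 6.25e-05). XPOT, the tRNA exporter, measured 223 and 219 CPM in WFI and 209 and 217 CPM in EV and was not called. Of 12 tested genes that modify, edit or release charged tRNA, 4 were higher, 2 lower and 6 not called. TARS3, a further threonyl enzyme gene outside the list, was higher (0.58, adjusted p = 0.00594).

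Several synthetases overlap a gene on the opposite strand. The library kit keeps strand, but the strand setting of the counting is not given in the sources used here. Whether shared reads were told apart is therefore not known. CARS2 shares 868 bases with ING1, a chromatin regulator that rose from 26.3 and 30.4 CPM to 179 and 181 CPM (log2 fold change 2.67, adjusted p = 7.12e-11). KARS1 shares 858 bases with TERF2IP, a telomere protein that rose from 64.0 and 61.4 CPM to 126 and 136 CPM (1.06, adjusted p = 4.29e-08). Both neighbours rose more than the synthetase they overlap, and the part of these reads in CARS2 and KARS1 counts was not tested. MARS1 shares 982 bases with DDIT3, a stress transcription factor that rose by 1.44 on the log2 scale (adjusted p = 1.19e-07), while MARS1 itself was not called. MARS1 also shares 13370 bases with ARHGAP9, which rose from 0.0968 and 0.0956 CPM to 4.34 and 5.58 CPM (5.6). FARSA, not called either, shares 2775 bases with FARSA-AS1 (4.85, from 1 and 1 counts to 26 and 33). On the same strand, the 3019 bases of MARS2 lie within ENSG00000222017, which had 0 and 10 counts in WFI and 0 in both EV samples. YARS1 shares 1387 bases with S100PBP (-1.34, adjusted p = 2.47e-05). WARS1 shares 388 with WDR25 (-0.71, adjusted p = 0.00786). GARS1 rose while GARS1-DT, a transcript that overlaps its start by 129 bases, fell from 12.2 and 13.5 CPM to 5.00 and 5.27 CPM (-1.32, adjusted p = 3.97e-05).

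Transcript length moved with the change across these libraries. The tested synthetases have principal transcripts of 1692 to 5014 bases with a median of 2800, against 3178 for protein coding genes. Across the 33 synthetases, length and log2 fold change had a Spearman rho of -0.38, and across 13554 protein coding genes -0.37, so the synthetases follow the genes at large. These are correlations across genes that share the same 4 libraries, and they describe those libraries. GC content had a rho of 0.01 among synthetases and 0.21 among protein coding genes. The planned length and GC correction moved the median of all genes to -0.23, and AARS1, MARS2, PARS2, KARS1 and CARS2 kept direction and call under it and under its outlier-resistant form. The rises shrank under the planned correction, CARS2 from 1.01 to 0.36 and KARS1 from 0.60 to 0.19.

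**Figure D5:**
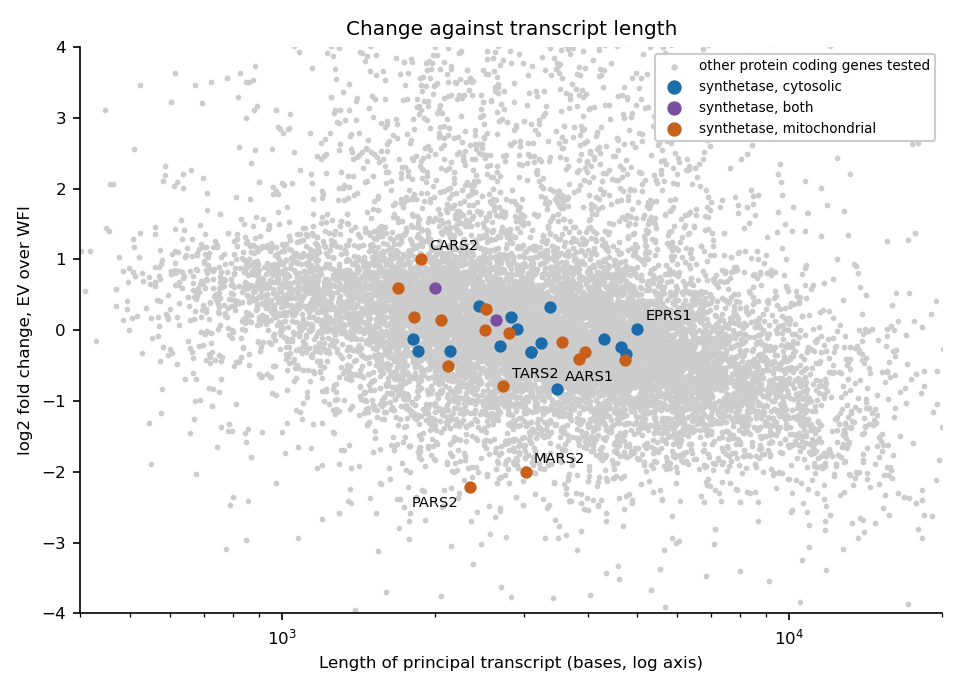
The log2 fold change of EV over WFI is plotted against the length of the principal transcript in bases (log axis) for protein coding genes (grey) and synthetases (coloured by compartment), and 598 of 13554 protein coding genes lie outside the plotted range. Longer transcripts tend to lie lower (rho -0.37), and the synthetases share this slope (rho -0.38), with PARS2, MARS2 and CARS2 at the edges of the synthetase set.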

How the data were processed

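Total RNA of 4 samples (WFI n = 2, EV n = 2) went into directional libraries, per the labels' protocols. The values deposited by the authors are raw counts, whole numbers for each gene and sample. The genome build was hg38 per the submitters' processing notes. For the aligner, the counter, its strand setting and the annotation, the entry is "not given in the sources used here".

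Testing used edgeR 4.0.16 in R 4.3.3 (filterByExpr, TMM scaling, quasi-likelihood fit, group as the sole term). P-values were adjusted by Benjamini-Hochberg over the 17465 genes kept by the filter, and a gene was called at an adjusted p below 0.05. Totals were 19368791 to 20727175 counts per sample. Within groups, counts varied beyond sampling noise (chi-square over its degrees of freedom: 2.22 in WFI, 4.6 in EV). CPM are scaled with TMM factors, so a change is relative to the rest of the library. The SE is the size of the log2 fold change over the square root of F. Gene positions and the principal transcript's length are from GENCODE 29, and promoter sequences from RefSeq.

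The alternatives comprised other tools and scalings (DESeq2 1.42.0, RLE, upper quartile), other filters (none, or 50 counts in 2 samples), the replicate number as a block, each sample left out, a minimum log2 fold change of 1, and a loess correction for length and GC content. Its outlier-resistant form was added after seeing the data. Scripts were tested on simulated counts. The members and lists were chosen with earlier results of these data known. Every member is named. From each other list the rule took at most the 4 called genes with the largest changes, plus cell markers and genes that overlap a member. ATF4, EIF2AK4, EIF5A2, MTFMT, XPOT, TARS3, VARS1 and uncalled genes were named after their values were seen.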

Additional observations from a re-analysis of the deposited data

How the results depend on the processing

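Over the 12 alternatives other than the fold threshold, 12 called synthetases kept direction and call: 9 lower and 3 higher (FARSB, KARS1 and CARS2). RARS2 (-0.06 to 0.25), SARS2 (-0.48 to 0.24) and WARS2 (-0.17 to 0.03) were never called and took either sign. SARS2 has 11 alternatives, since it did not pass the 50-count filter. With a log2 fold change of at least 1 the calls were 5385 over all genes, 1 synthetase higher and 2 lower. The outlier-resistant correction gave 9 synthetases higher and 10 lower, so lower calls hardly outnumbered higher ones there. Under it the median log2 fold change of the synthetases was -0.01, against 0.09 over all genes. Higher synthetases, 8 in the main test, numbered 5 with no count filter, 4 with the length and GC correction and 5 to 7 with a sample left out (5 without the second WFI sample). Lower synthetases, 17 in the main test, numbered 10 with the outlier-resistant correction, 24 with the planned correction, 13 with DESeq2 and 12 to 17 with a sample left out. All changed genes numbered 9671 to 11541 with a sample left out.

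The median log2 fold change of cytosolic and dual genes, -0.15, was -0.09 with upper quartile scaling, -0.22 with no count filter, -0.10 with the 50-count filter, -0.33 with the planned correction, 0.03 with the resistant one and -0.17 to -0.12 with a sample left out. The mitochondrial median, -0.17, was -0.11 (upper quartile), -0.24 (no filter), -0.48 (planned correction) and -0.07 (resistant), -0.19 with the 50-count filter, and -0.23 to -0.11 with a sample left out. The median of all genes moved too, from 0.02 to -0.23 under the planned correction, 0.09 under the resistant one and 0.24 without a filter. Calls over all genes went from 6019 higher and 5509 lower to 4229 and 7125 under the planned correction and to 6213 and 4460 under the resistant one.

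The planned correction reversed the called FARS2 (-0.08), GARS1 (-0.21), HARS1 (-0.17) and QARS1 (-0.26), and brought HARS2 (-0.40) and MARS1 (-0.39), not called before, to lower calls. Under it the uncalled SARS2 went to -0.48 and RARS2 to -0.06. The resistant correction reversed IARS1 (0.06) and TARS1 (0.14). The cause was not tested. With the replicate number as a block, 8 synthetases were higher and 17 lower, as without it, and 11530 genes changed. Samples with the same number did not deviate together (r = -0.0126 over 8540 genes). With n = 2 per group this correlation cannot show whether samples were handled in pairs. Few counts limit what can be seen for genes such as SARS2 and PARS2.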
